A study of Mus musculus with 8 samples.

Results

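The genes examined here were the 6 EML genes Eml1 to Eml6, the receptor kinase Alk and its relative Ltk, and the ALK ligand genes Alkal1 and Alkal2. They were chosen by gene symbol, as the families of the genes joined in the fusion that drives this tumour model, and made up 10 of the 27179 genes in the count table. RNA was sequenced from cells sorted out of mouse lungs carrying Eml4-Alk tumours, in 4 QZ1-hi and 4 QZ1-lo libraries. All mice were C57BL/6 by the labels (C57BL/6J in the study's methods), 18 to 22 weeks old and 11 to 12 weeks past tumour induction. The genotype label reads Eml4-Alk translocation, and per the study's methods the rearrangement came from a virus delivering Cas9 and guides to the airways of female animals. All received 4.5 nmol of QZ1, a quenched peptide probe that fluoresces and tags nearby cells once a protease cuts it, with lung collection after 2 h. Live cells without CD45 or CD11b on their surface were sorted into a probe-bright (QZ1-hi) and a probe-dim (QZ1-lo) population. Both populations therefore came from tumour-bearing lungs, no library held healthy lung, and neither population was a purified tumour cell fraction. The comparison asked how probe-bright cells differed from probe-dim cells of the same organ. Cells of brightness between the sorting gates were in neither population.

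EML proteins bind microtubules and carry a WD-repeat region, and several of them start with a short coiled coil that lets the protein form trimers. ALK is a receptor tyrosine kinase best known from the developing nervous system, is switched on by the ligands ALKAL1 and ALKAL2, and has LTK as its closest relative. In EML4-ALK lung cancer an inversion places the start of Eml4 in front of the kinase-coding end of Alk, so that the Eml4 promoter drives a kinase that the EML4 coiled coil keeps switched on. A count per gene adds up reads from fused and normal transcripts, and from both alleles, so the fused transcript was not measured apart from normal Alk and normal Eml4.

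The promoter of Eml4 is shown because it drives both normal Eml4 and the fusion, and that of Eml2 because Eml2 had the highest mean level per kilobase of exon in both populations. Each run is the 250 bases upstream of a transcription start in RefSeq (GRCm38.p6, plus strand, 5′ to 3′), with CG dinucleotides in capitals. Eml4 and Eml2 each had 2 promoter entries there, and the start furthest upstream was used. The Eml4 window is chr17:83350681-83350930 and the Eml2 window is chr7:19176171-19176420.
Eml4: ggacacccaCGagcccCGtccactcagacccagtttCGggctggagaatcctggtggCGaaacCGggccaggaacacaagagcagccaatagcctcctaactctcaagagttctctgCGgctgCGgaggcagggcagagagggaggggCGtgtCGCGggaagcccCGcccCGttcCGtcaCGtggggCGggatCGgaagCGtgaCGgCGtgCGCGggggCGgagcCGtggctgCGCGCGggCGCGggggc
Eml2: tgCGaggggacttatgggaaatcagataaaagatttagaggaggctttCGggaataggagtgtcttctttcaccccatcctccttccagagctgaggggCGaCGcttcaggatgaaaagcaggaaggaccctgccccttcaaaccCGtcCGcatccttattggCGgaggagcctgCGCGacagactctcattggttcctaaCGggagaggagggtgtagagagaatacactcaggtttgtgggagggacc
The Eml4 window held 28 CG dinucleotides, a number reached by 7.61% of 32851 promoter windows of the same length, and its GC content was 70.4% against a median of 52.4%. The Eml2 window held 10 CG dinucleotides, a number reached by 37.8% of windows, against a median of 6. On either strand, the letters GGGCGG, which contain a CG, occurred 3 times in the Eml4 window and in 32.7% of all windows. CCAAT occurred once before Eml4 and 2 times before Eml2, and was found in 33.8% of all windows. TATAAA occurred in neither window and was found in 12.4% of all windows. RefSeq windows were matched for 9 of the 10 genes, all but Alkal1.

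Each library held between 18380918 and 26847938 counts. Mitochondrial and ribosomal RNA genes took 39.5 to 58.4% of them in QZ1-hi and 30.2 to 47.3% in QZ1-lo. Levels are given as CPM (counts scaled to a common library total after edgeR's TMM adjustment). The TMM factors ran from 0.6601 to 1.097 in QZ1-hi and from 0.9691 to 1.352 in QZ1-lo. A count of 3, used as the floor, corresponded to between 0.0894 and 0.179 CPM. Of 15583 genes tested, 1540 were higher and 1280 lower in QZ1-hi (edgeR quasi-likelihood test, Benjamini-Hochberg adjusted p under 0.05), which is 9.88% and 8.21%, or 18.1% in either direction. With scaling by library size alone the split was 882 higher and 2509 lower, and the median log2 fold change over all genes moved from 0.02 to -0.44. Cell type markers differed widely between the populations. All 9 endothelial markers were higher in QZ1-hi, with a summed level of 999 to 2360 CPM against 75.4 to 310 CPM, as were all 6 fibroblast markers (1570 to 3030 CPM against 38.8 to 353 CPM), 4 of 4 mesothelial markers and 4 of 7 pericyte markers. All 5 pan-epithelial markers (434 to 706 CPM against 1220 to 1700 CPM), 6 of 6 ciliated cell markers and 4 of 4 airway secretory markers were lower. Of 7 alveolar type 2 markers, 1 was higher (Sftpc), with summed levels of 6000 to 10800 CPM against 4790 to 7300 CPM. Leukocyte markers, the target of the depletion gate, summed to 2890 to 6200 CPM in QZ1-hi and 2100 to 4080 CPM in QZ1-lo. In RNA of mixed cells, more cells of a type and more RNA per cell cannot be told apart, and what these marker differences contributed to the results below was not tested.

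Of the 10 genes, 9 passed the filter on low counts, and the populations differed in 2 of them. Eml1 rose and Eml2 fell in QZ1-hi, whereas Eml4, Alk and 5 others did not pass the test and Alkal2 was too sparse to be tested. The 4 libraries of one population lay wholly above those of the other for the same pair of genes, Eml1 (higher) and Eml2 (lower). Over all genes tested, 11.9% were higher and 10.7% lower without overlap, or 22.6% in either direction, so 2 of 9 is near the background by either count. The median log2 fold change of the 9 genes was -0.16. With scaling by library size alone, 1 gene was higher and 3 lower (Eml2, Eml5 and Ltk).

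**Figure D1:**
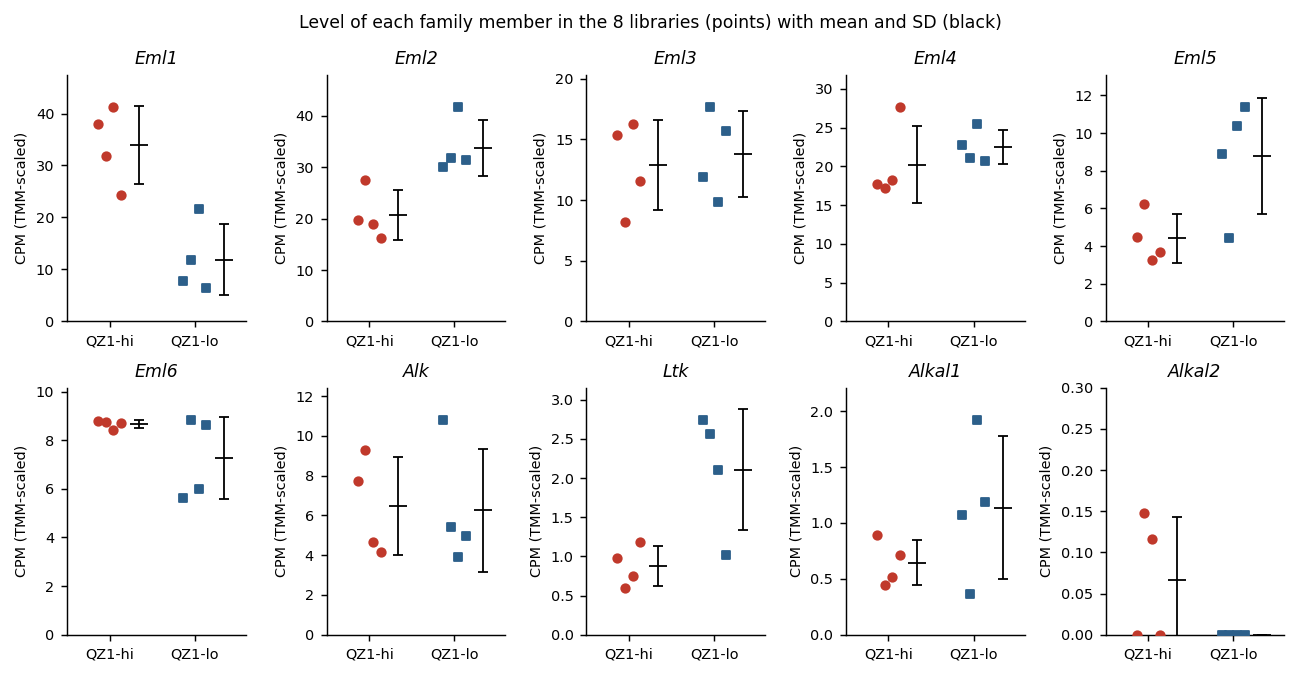
Level of each of the 10 genes in the 8 libraries, in TMM-scaled CPM on linear axes that start at 0, with points for libraries and black marks for mean and SD by population. Eml1 and Eml2 separate the populations completely, in opposite directions, whereas the points of Eml4 and Alk overlap.

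Eml4, the 5′ partner of the fusion, lies at chr17:83350931-83480361 on the plus strand (Entrez 78798, GRCm38). Its level in the QZ1-hi libraries, replicates 1 to 4, was 17.7, 17.2, 18.3 and 27.7 CPM. In the QZ1-lo libraries it was 22.8, 21.1, 25.5 and 20.7 CPM. Of the QZ1-hi libraries, 3 lay below all QZ1-lo libraries and replicate 4 lay above all of them. The means were 20.2 ± 5.01 and 22.5 ± 2.21 CPM (SD, n = 4 each), for a log2 fold change of -0.16 (SE 0.18, 95% interval -0.55 to 0.23, edgeR adjusted p = 0.628, exact permutation p = 0.4, two-sided). The interval leaves room for a decrease or increase of modest size, so the data do not show that Eml4 was equal in both populations. QZ1-hi replicate 4 also had the highest summed leukocyte markers of its population (6200 CPM against 2890 to 3360 CPM), the highest erythroid sum (1010 CPM), and, over all 8 libraries, the highest mitochondrial and ribosomal RNA share (58.4%) and the lowest TMM factor (0.6601). In QZ1-lo the order was the reverse, since replicate 4 had the highest leukocyte sum (4080 CPM) and the lowest Eml4 level, and the part of these in the Eml4 values was not tested.

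Alk, the 3′ partner, lies on the minus strand of the same chromosome at chr17:71868972-72604627 (Entrez 11682). Its reads were few: 183, 188, 81 and 70 counts in the QZ1-hi libraries and 361, 133, 108 and 121 counts in the QZ1-lo libraries. After scaling these were 7.75, 9.29, 4.68 and 4.17 CPM in QZ1-hi and 10.8, 5.41, 3.91 and 4.95 CPM in QZ1-lo. Alk was thus read in every library, with 2 higher and 2 lower libraries in QZ1-hi and a single high library, replicate 1, in QZ1-lo. The means were 6.47 ± 2.45 and 6.26 ± 3.07 CPM (SD, n = 4 each), and the log2 fold change was 0.05 (SE 0.37, 95% interval -0.76 to 0.86, edgeR adjusted p = 0.952, exact permutation p = 0.943). The interval spans changes of nearly 1 log2 unit either way, and the sign was negative with library size scaling (-0.43) and without any of 5 single libraries (from -0.01 to -0.20).

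Alk is known from neural cells, so the levels of neural markers are given beside it, and their part in the Alk level was not tested. Elavl4 had no counts in any library, and the 5 neuronal markers, of which 1 passed the filter, summed to 1.37 to 2.54 CPM in QZ1-hi and 1.26 to 2.05 CPM in QZ1-lo. Schwann cell markers summed to 2.32 to 3.16 CPM in QZ1-hi and 2.07 to 3.19 CPM in QZ1-lo. Neuroendocrine markers summed to 0.938 to 3.1 CPM and 2.86 to 7.08 CPM.

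As a ratio of levels per kilobase of exon, Alk was 0.341, 0.421, 0.2 and 0.117 of Eml4 in the QZ1-hi libraries. In the QZ1-lo libraries it was 0.367, 0.2, 0.119 and 0.187 of Eml4. The ratios overlapped, with means of 0.27 ± 0.137 and 0.218 ± 0.106 (SD, n = 4 each). Epcam, an epithelial surface marker, was itself lower in QZ1-hi (58.7 ± 16.3 against 132 ± 17.4 CPM, log2 fold change -1.17, edgeR adjusted p = 0.00158). Set against Epcam, the ratio of each gene was higher in QZ1-hi, while neither gene's own level was called. Alk amounted to 9.26 to 13.8 CPM per 100 CPM of Epcam in QZ1-hi and to 2.56 to 7.68 in QZ1-lo, without overlap. Eml4 amounted to 22.9 to 61.5 CPM per 100 CPM of Epcam in QZ1-hi and to 16.3 to 18 in QZ1-lo, also without overlap. The lower Epcam level in QZ1-hi enters both ratios as their denominator, and they are given with no test. Summed alveolar type 2 markers were not lower in QZ1-hi (6000 to 10800 CPM against 4790 to 7300 CPM). The pan-epithelial, alveolar type 1, ciliated and airway secretory sums were lower there. Ratios to other epithelial markers were not computed and could differ in direction.

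Eml1, the EML gene known from neural progenitors and cortical malformation, lies at chr12:108370957-108539617 (plus strand, Entrez 68519). Its level was 38.0, 31.9, 41.3 and 24.3 CPM in the QZ1-hi libraries and 7.78, 11.8, 21.6 and 6.38 CPM in the QZ1-lo libraries. All 4 QZ1-hi values exceeded all 4 QZ1-lo values, and QZ1-lo replicate 3 stood nearest to the QZ1-hi range. The means were 33.9 ± 7.48 and 11.9 ± 6.87 CPM (SD, n = 4 each), a fold change of 2.85, or 1.51 on the log2 scale (SE 0.34, 95% interval 0.76 to 2.26, edgeR adjusted p = 0.00991). The exact permutation p was 0.0286, the smallest that 70 assignments of the libraries allow. The call held in all 8 fits that left out 1 library, with log2 fold changes of 1.30 to 1.97.

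The order of the libraries by Eml1 was also their order by summed endothelial markers within each population. In QZ1-hi the endothelial sum was 999 CPM in replicate 4, 1030 in replicate 2, 1800 in replicate 1 and 2360 in replicate 3. In QZ1-lo it was 75.4 CPM in replicate 4, 97.8 in replicate 1, 132 in replicate 2 and 310 in replicate 3. In QZ1-lo the fibroblast (38.8, 132, 338 and 353 CPM) and pericyte sums (8.51, 15.2, 23 and 35.5 CPM) followed the same order of replicates 4, 1, 2 and 3. So did the smooth muscle (10.3, 14.2, 15.1 and 21.6 CPM) and alveolar type 2 sums (4790, 5580, 5660 and 7300 CPM). In QZ1-hi none of these further sums followed the Eml1 order of replicates 4, 2, 1 and 3. There the fibroblast sums were 1570, 2800, 1660 and 3030 CPM, and the pericyte sums were 110, 139, 102 and 208 CPM. The smooth muscle sums were 25, 39, 39.6 and 37.1 CPM, and the alveolar type 2 sums were 6000, 7480, 10800 and 7790 CPM. These are 4 libraries a population that share their preparation and scaling, the order was noticed after the values were seen, and the part of these cell types in the Eml1 level was not tested. Of the Eml1 exon length, 4.29% overlaps Gm16596 on the opposite strand.

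Eml2 lies at chr7:19176421-19206482 (plus strand, Entrez 72205), just downstream of the promoter shown above. It was read at 19.7, 27.6, 19.0 and 16.3 CPM in the QZ1-hi libraries and at 30.0, 31.8, 41.8 and 31.5 CPM in the QZ1-lo libraries. All QZ1-hi libraries were below all QZ1-lo libraries, although the gap between QZ1-hi replicate 2 and QZ1-lo replicate 1 was small. The means were 20.7 ± 4.86 and 33.8 ± 5.38 CPM (SD, n = 4 each), 1.63-fold lower in QZ1-hi, with a log2 fold change of -0.71 (SE 0.18, 95% interval -1.11 to -0.31, edgeR adjusted p = 0.0192, exact permutation p = 0.0286). The call was lost without QZ1-hi replicate 4 (-0.58, adjusted p = 0.0548) and without QZ1-lo replicate 3 (-0.59, adjusted p = 0.0528). The pan-epithelial markers moved in the same direction as Eml2, with all 5 lower in QZ1-hi, and their part in the Eml2 level was not tested.

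Eml3, which takes part in building spindle microtubules, was read at 8.20 to 16.3 CPM in QZ1-hi and 9.88 to 17.7 CPM in QZ1-lo. The ranges overlapped almost fully, with means of 12.9 ± 3.73 and 13.8 ± 3.55 CPM (SD, n = 4 each) and a log2 fold change of -0.10 (95% interval -0.66 to 0.46, edgeR adjusted p = 0.852). Leaving out QZ1-hi replicate 2 or QZ1-lo replicate 2 turned the sign, to 0.05 in each case.

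Eml5 and Eml6 are the long members of the family, whose proteins repeat the EML domain. Eml5 was read at 4.49, 6.22, 3.24 and 3.69 CPM in QZ1-hi and at 8.91, 4.43, 10.4 and 11.4 CPM in QZ1-lo. QZ1-lo replicate 2 lay inside the QZ1-hi range, and the other 3 QZ1-lo libraries lay above it. The means were 4.41 ± 1.31 and 8.79 ± 3.07 CPM (SD, n = 4 each), for a log2 fold change of -0.99 (SE 0.32, 95% interval -1.70 to -0.28) that just missed the threshold (edgeR adjusted p = 0.0574, exact permutation p = 0.0857). It passed with DESeq2 (adjusted p = 0.0242), with library size scaling (adjusted p = 0.00516), without QZ1-lo replicate 2 (-1.21, edgeR adjusted p = 0.0161) and without QZ1-hi replicate 2 (-1.22, edgeR adjusted p = 0.0353). Of the Eml5 exon length, 949 bases (7.89%) overlap Zc3h14 on the opposite strand, which was read at 35.8 ± 1.71 and 42.6 ± 3.83 CPM.

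Eml6 was the least variable of the EML genes within QZ1-hi, at 8.81, 8.74, 8.44 and 8.70 CPM. In QZ1-lo it was 5.63, 8.83, 6.01 and 8.64 CPM, with 2 libraries at the QZ1-hi level and 2 below it. The log2 fold change was 0.26 (95% interval -0.21 to 0.72, edgeR adjusted p = 0.491), and -0.18 with library size scaling. Its exons overlap Rtn4 on the opposite strand over 1284 bases (13.8% of exon length), and Rtn4 was read at 124 ± 7.18 and 138 ± 19.2 CPM. Since the strand setting of the counting is not given in the sources used here, reads of Rtn4 and Eml6 may not be fully separated.

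Ltk, the receptor closest to ALK, was read at 0.975, 0.593, 0.752 and 1.19 CPM in QZ1-hi, from 12 to 23 counts a library. In QZ1-lo it was 2.74, 2.56, 2.10 and 1.02 CPM, from 25 to 92 counts. QZ1-lo replicate 4 lay inside the QZ1-hi range and the other 3 lay above it. The means were 0.878 ± 0.262 and 2.11 ± 0.772 CPM (SD, n = 4 each), and the log2 fold change of -1.26 (SE 0.51, 95% interval -2.37 to -0.15) did not pass the test (edgeR adjusted p = 0.119, exact permutation p = 0.0571). It passed narrowly with a minimum of 10 counts in every library (adjusted p = 0.0493) and with library size scaling (-1.74, adjusted p = 0.0494).

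Of the ligand genes, Alkal1 was sparse, with 9 to 53 counts a library, and Alkal2 was near the limit of detection. Alkal1 was read at 0.890, 0.445, 0.520 and 0.715 CPM in QZ1-hi and at 1.07, 0.366, 1.92 and 1.19 CPM in QZ1-lo, above the floor in every library. The log2 fold change was -0.82 with a wide interval (-2.22 to 0.59, edgeR adjusted p = 0.458). Alkal2 had 3 counts in QZ1-hi replicate 2, 2 in QZ1-hi replicate 3 and none in the other 6 libraries. Of its exon length, 35.1% overlaps Acp1 on the opposite strand, which was read at 9.52 ± 2.44 and 8.9 ± 1.33 CPM, so these few reads may not be separate from Acp1. A count of 0 in QZ1-lo allows up to 0.0894 to 0.123 CPM per library, by counting error only, so no difference in Alkal2 was detectable at this depth.

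**Figure D2:**
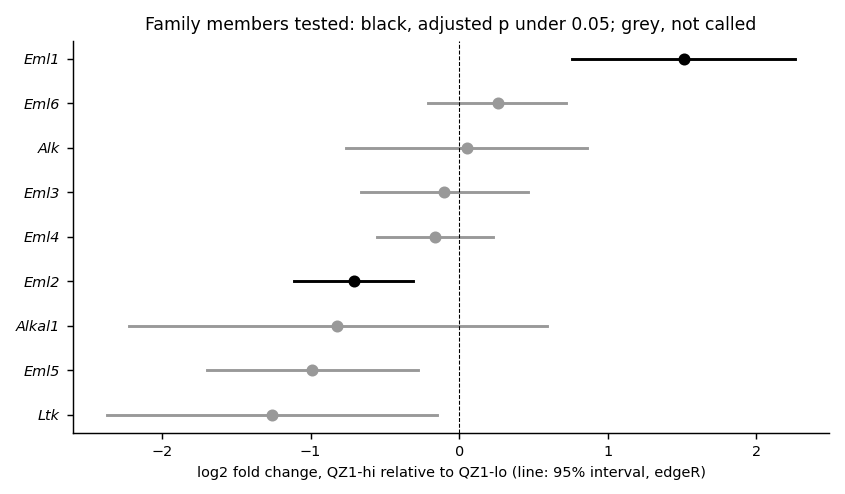
Log2 fold change of QZ1-hi relative to QZ1-lo for the 9 genes tested, with points for estimates, lines for 95% intervals from edgeR and black for adjusted p under 0.05. Eml1 (1.51) and Eml2 (-0.71) are the called genes, and the intervals of Alk, Alkal1 and Ltk are the widest.

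Levels of different genes were compared only per kilobase of exon (CPM per kilobase of the GENCODE M21 exon union). In QZ1-hi, Eml2 was highest at 5.85 ± 1.38, followed by Eml1 at 4.55 ± 1.01, Eml4 at 3.35 ± 0.83 and Eml3 at 3.14 ± 0.907 CPM per kilobase (SD, n = 4). Each of these overlapped its neighbour in the order, although the lowest Eml2 library (4.63) was above the highest library of Eml4 (4.59) and of Eml3 (3.97). A clear step followed, from Eml3 to Eml6 at 0.935 ± 0.0175, and then came Alk at 0.835 ± 0.316, Alkal1 at 0.662 ± 0.206, Eml5 at 0.367 ± 0.109 and Ltk at 0.244 ± 0.0728, again with overlap between neighbours. Ltk was above Alkal2, at 0.0437 ± 0.0512, in every library.

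In QZ1-lo the order differed at the top. Eml2 stood alone at 9.57 ± 1.52 CPM per kilobase, above Eml4 at 3.73 ± 0.366 without overlap. Eml3 at 3.36 ± 0.865 and Eml1 at 1.6 ± 0.924 came next, so Eml1 ranked 2 in QZ1-hi and 4 in QZ1-lo. Alkal1 (1.17 ± 0.654), Alk (0.807 ± 0.396), Eml6 (0.784 ± 0.182), Eml5 (0.73 ± 0.255) and Ltk (0.586 ± 0.215) could not be ordered beyond their spread. Against all genes tested, the level per kilobase of Eml4 exceeded 56.4% of genes in QZ1-hi and 60.8% in QZ1-lo, that of Alk 21.8% and 23.2%, and that of Eml1 65.3% and 37.5%. With the longest transcript as length instead, Eml1 (8.12) was above Eml2 (7.47) in QZ1-hi.

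**Figure D3:**
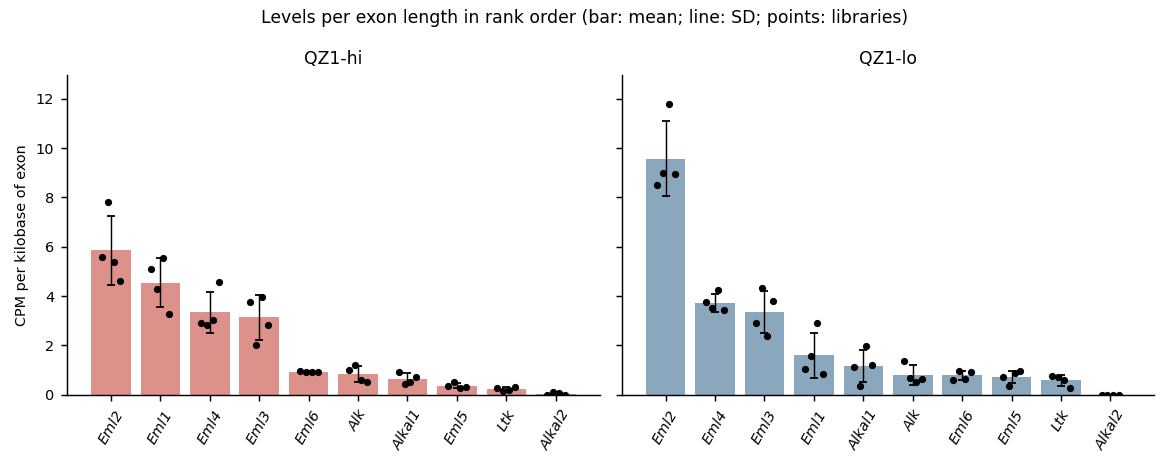
Mean level of each gene in CPM per kilobase of exon (bars from 0, lines for SD, points for the 4 libraries), ranked within QZ1-hi and within QZ1-lo on a shared axis. With exon union lengths the mean of Eml2 is highest in both populations, at 5.85 and 9.57, overlapping Eml1 in QZ1-hi, and Eml1 ranks 2 in QZ1-hi and 4 in QZ1-lo. Alk is near 0.8 in both.

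The summed EML level overlapped between the populations, at 16.6 to 19.1 CPM per kilobase in QZ1-hi (mean 18.2 ± 1.13) and 17.6 to 22.9 in QZ1-lo (mean 19.8 ± 2.26, SD, n = 4 each). Its make-up differed. Eml1 supplied 19.7 to 29.1% of it in QZ1-hi (24.8 ± 4.19) and 4.54 to 12.7% in QZ1-lo (7.81 ± 3.56). Eml2 supplied 28 to 42.5% in QZ1-hi (32.1 ± 6.97) and 45.7 to 51.7% in QZ1-lo (48.3 ± 2.55). Neither share overlapped between the populations. The ratio of Eml1 to Eml2 was 0.548 to 1.03 in QZ1-hi and 0.0961 to 0.246 in QZ1-lo. Eml4 supplied 15.5 to 15.8% in 3 QZ1-hi libraries, 27.7% in QZ1-hi replicate 4, and 17.7 to 21.5% in QZ1-lo. Shares of Eml3 (17.2 ± 4.53 and 17.3 ± 5.03%), Eml5 and Eml6 overlapped.

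**Figure D4:**
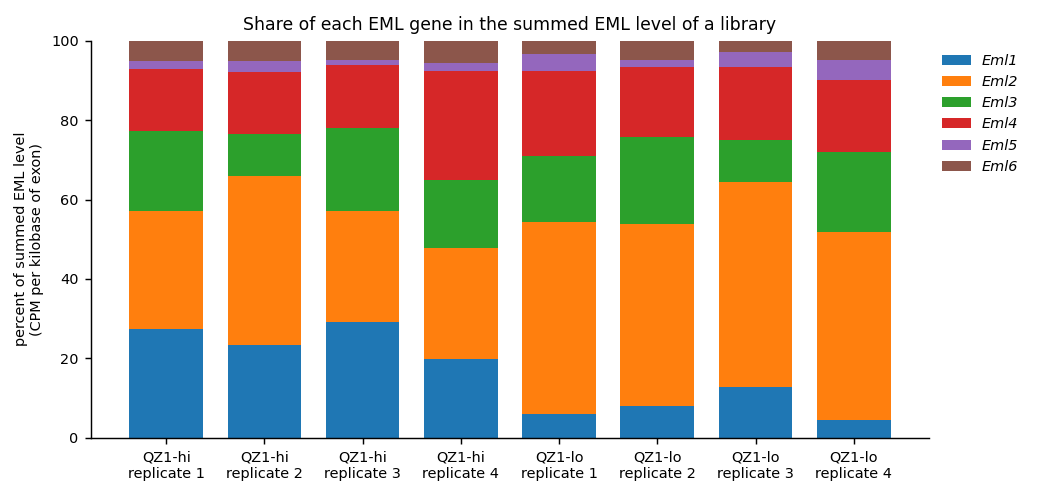
Share of each EML gene in the summed EML level (CPM per kilobase of exon) of each of the 8 libraries, in percent from 0 to 100. The Eml1 band is 19.7 to 29.1% wide in QZ1-hi and 4.54 to 12.7% in QZ1-lo, and the Eml4 band is widest in QZ1-hi replicate 4.

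The genes around ALK signalling were read from lists drawn up from known roles. Of 40 adaptors and effectors tested, 5 were higher and 2 lower in QZ1-hi, which is 17.5% called against 18.1% of all genes, and their median log2 fold change was 0.03. With library size scaling the split was 0 higher and 5 lower (2 and 14 at an unadjusted p under 0.05). Jak3, a kinase that ALK signalling engages, was read at 20.7 to 34.6 CPM in QZ1-hi and 9.37 to 15.2 CPM in QZ1-lo (log2 fold change 1.16, SE 0.22, edgeR adjusted p = 0.0038). Plcg1, a phospholipase that binds activated receptors, was read at 72 ± 7.32 and 41.7 ± 2.7 CPM (0.79, adjusted p = 0.000972), and Rapgef1, a RAP1 activator, at 56.6 ± 12.5 and 33.9 ± 2.02 CPM (0.74, adjusted p = 0.00701). These 3 calls were lost with library size scaling (adjusted p = 0.0975, 0.329 and 0.43). Src, a membrane tyrosine kinase, fell from 62.7 ± 6.85 CPM in QZ1-lo to 33.4 ± 7.63 CPM in QZ1-hi (log2 fold change -0.91, SE 0.17, edgeR adjusted p = 0.0031).

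The adaptors that bind ALK directly gave the following values. Irs1 was higher in QZ1-hi, at 17.3 ± 3.34 against 10.1 ± 1.77 CPM (log2 fold change 0.78, SE 0.20, edgeR adjusted p = 0.0188), although 30.9% of its exon length overlaps Gm9747 on the opposite strand. Its call was lost without QZ1-hi replicate 2, QZ1-hi replicate 3 or QZ1-lo replicate 2 (0.63 to 0.74, adjusted p from 0.0521 to 0.0634) and with library size scaling (0.29). Shc1, Grb2 and Frs2 were not called. Their log2 fold changes were 0.31 (95% interval 0.06 to 0.56, edgeR adjusted p = 0.0897), 0.04 (-0.24 to 0.32, adjusted p = 0.872) and -0.25 (-0.63 to 0.12, adjusted p = 0.372).

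Of 12 phosphatases and other brakes on ALK and its pathway, 3 were higher and 2 lower, or 41.7% called against 18.1% of all genes, with a median of 0.02. The brakes that moved did not move together. Spry4, an inhibitor of receptor kinase signalling, was read at 30.8 ± 8.87 CPM in QZ1-hi and 6.22 ± 1.5 CPM in QZ1-lo (log2 fold change 2.31, SE 0.25, edgeR adjusted p = 0.000278). Its relative Spry2 went the other way, at 28.2 ± 5.19 and 45.8 ± 7.35 CPM (-0.70, adjusted p = 0.0131). The receptor phosphatases were divided in the same manner. Ptprg was read at 107 ± 28.4 and 27.6 ± 6.24 CPM (1.95, adjusted p = 0.000278), whereas Ptprz1, the phosphatase reported to act on ALK, was read at 4.52 ± 2.81 and 12.8 ± 5.93 CPM (-1.50, SE 0.44, adjusted p = 0.0341). For Ptprz1 the libraries overlapped (2.49 to 8.5 CPM against 7.9 to 20.6 CPM), and the call was lost without any of 5 single libraries, namely QZ1-hi replicates 1, 3 and 4 and QZ1-lo replicates 2 and 3 (-1.18 to -1.46, adjusted p from 0.0766 to 0.0994). Socs3, an inhibitor of JAK and STAT signalling, was read at 229 ± 70.1 and 122 ± 11.6 CPM (0.91, adjusted p = 0.00597), a call lost with library size scaling (0.48, adjusted p = 0.226).

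Of 5 earlier proposed ALK ligands and heparin-binding partners, 1 was higher and none lower by edgeR, or 20% called against 18.1% of all genes. The higher gene was the multiligand receptor Lrp1, at 527 ± 99.8 and 204 ± 51.7 CPM (log2 fold change 1.37, SE 0.21, edgeR adjusted p = 0.0011). The secreted factors themselves were sparse. Ptn (pleiotrophin) was read at 1.16 ± 0.54 and 0.559 ± 0.159 CPM (1.05, 95% interval -0.28 to 2.37, adjusted p = 0.291) and Mdk (midkine) at 1.41 ± 1.28 and 0.481 ± 0.653 CPM (1.57, -0.88 to 4.02, adjusted p = 0.406).

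The chaperones that hold the fusion kinase folded had a median log2 fold change of -0.40, with 2 of 7 lower and none higher by edgeR (4 lower and 0 higher at an unadjusted p under 0.05, and 3 lower and 0 higher by DESeq2), against 8.21% lower among all genes. With library size scaling 5 were lower and 0 higher. Hsp90aa1, the inducible cytosolic HSP90, was read at 205 ± 38.4 CPM in QZ1-hi and 345 ± 60.5 CPM in QZ1-lo (-0.75, SE 0.17, edgeR adjusted p = 0.00908). Of its exonic stretches of 50 bases, 47.5% also occur in another gene, mostly Gm12346, so its counts are uncertain. Hsp90ab1, the constitutive form, was read at 1190 ± 97.8 and 1570 ± 149 CPM (-0.40, adjusted p = 0.0457), a call that held in only 1 of the 8 fits without a library, the one without QZ1-hi replicate 2 (-0.32 to -0.44 in the others, adjusted p from 0.0586 to 0.129). It was also lost with no filter on low counts and with a minimum of 10 counts in every library.

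None of 21 microtubule partners of the EML proteins was called by edgeR, or 0% against 18.1% of all genes. Their median log2 fold change was -0.08 (1 higher and 2 lower at an unadjusted p under 0.05). DESeq2 also called none, limma-voom called 1 higher, and library size scaling called 3 lower. The NEK kinases, mitotic kinases of which some bind EML proteins, did not pass the test, with log2 fold changes of 0.12 for Nek6 (95% interval -0.19 to 0.42), 0.00 for Nek7 (-0.27 to 0.28) and 0.17 for Nek9 (-0.13 to 0.47). Nudc, a chaperone of WD-repeat proteins, was at -0.36 (-0.70 to -0.02, edgeR adjusted p = 0.152).

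Among the kinases related to ALK, Ros1, itself a fusion kinase in lung cancer, was higher in QZ1-hi. It was read at 45, 24.9, 21.7 and 19.1 CPM in QZ1-hi and at 10.6, 5.41, 12.3 and 4.54 CPM in QZ1-lo. The populations did not overlap and the log2 fold change was 1.75 (SE 0.36, edgeR adjusted p = 0.00597). The insulin receptor Insr did not pass (51.7 ± 8.56 and 48.4 ± 2.06 CPM, 0.10, 95% interval -0.20 to 0.39), and Igf1r was lower (43.4 ± 6.68 and 61.4 ± 4.82 CPM, -0.50, SE 0.13, edgeR adjusted p = 0.0244). The Igf1r call was lost without QZ1-hi replicate 1, QZ1-hi replicate 4, QZ1-lo replicate 2 or QZ1-lo replicate 3 (-0.37 to -0.50, adjusted p from 0.0564 to 0.0644). Of 12 other lung cancer fusion kinases and ALK fusion partners tested, 2 were higher and none lower by edgeR (16.7% called against 18.1% of all genes), with 3 lower at an unadjusted p under 0.05 and 1 lower by DESeq2. With library size scaling 1 was higher and 3 were lower. The higher genes were Hip1, an endocytic adaptor found fused to ALK, at 139 ± 25.4 and 56.4 ± 21.4 CPM (log2 fold change 1.30, SE 0.24, edgeR adjusted p = 0.0033), and Klc1, a kinesin light chain (0.60, adjusted p = 0.0206). The Klc1 call was lost without QZ1-hi replicate 3, QZ1-lo replicate 1, QZ1-lo replicate 2 or QZ1-lo replicate 3 (0.45 to 0.58, adjusted p from 0.0549 to 0.0849) and with library size scaling (0.13, adjusted p = 0.726).

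Alk and Eml4 lie 10.7 Mb apart, and the inversion that makes the fusion turns around the stretch between them. Of 55 genes in that stretch, 49 were tested, of which 9 were higher and 3 lower in QZ1-hi, or 24.5% called against 18.1% of all genes. Their median log2 fold change was 0.18, and the split was 3 higher and 5 lower with library size scaling. Ltbp1, which binds latent TGF-beta in the matrix, was read at 44.2 ± 12.6 and 5.92 ± 3.58 CPM (2.90, SE 0.44, edgeR adjusted p = 0.00117). Rasgrp3, a RAS activator of vessel and B cells, was read at 35.4 ± 16.4 and 5.32 ± 3.31 CPM (2.73, adjusted p = 0.00214). In the other direction, Cdkl4 was read at 1.73 ± 0.652 and 7.13 ± 3.64 CPM (-2.05, adjusted p = 0.00745) and C230072F16Rik at 0.934 ± 0.585 and 4.48 ± 2.63 CPM (-2.26, adjusted p = 0.0195), the latter lost without QZ1-hi replicate 3 or QZ1-lo replicate 3 (-1.78 to -2.12, adjusted p from 0.0514 to 0.0665).

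The called gene nearest to Eml4, named after its value was seen, was Pkdcc, a secreted kinase gene 0.126 Mb from the Eml4 start. It was read at 11.1 ± 6.21 CPM in QZ1-hi and 4.2 ± 1.04 CPM in QZ1-lo (log2 fold change 1.40, SE 0.37, edgeR adjusted p = 0.0216), and its call was lost without QZ1-hi replicate 2 or QZ1-lo replicate 4 (0.92 to 1.24, adjusted p from 0.0548 to 0.0669) and with library size scaling (0.93, adjusted p = 0.0779). Called genes were spread along the stretch, from 0.126 to 10.500 Mb from the Eml4 start, while Eml4 and Alk at its ends were not called. Inverted and uninverted chromosomes were not separated, so these values do not bear on the inversion itself.

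**Figure D5:**
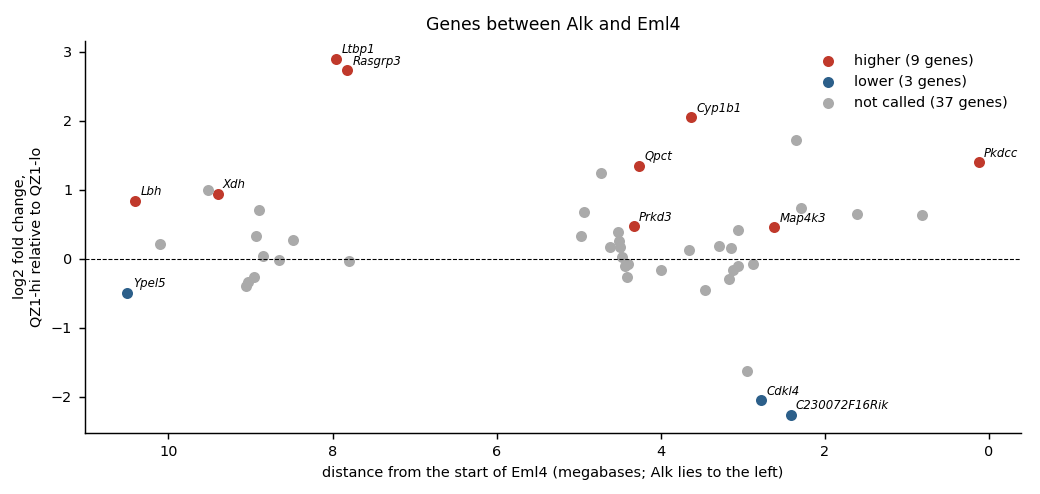
Log2 fold change of the 49 tested genes between Alk and Eml4 by distance from the start of Eml4 in megabases, coloured by call. The 9 higher and 3 lower genes lie at distances from 0.126 to 10.500 Mb.

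The genes most like Eml4 across the 8 libraries, by root mean square difference in log2 CPM after each gene's mean was subtracted, were Pi4k2a (0.07), Asxl2 (0.08) and Rnf149 (0.09), against a median of 0.46 over all genes. Each was highest in QZ1-hi replicate 4, as Eml4 was, at 39.1, 48.9 and 115 CPM. For Alk they were Mad2l2 (0.18), Ank (0.25) and Sertad4 (0.26), against a median of 0.66. Like Alk, each was higher in QZ1-hi replicates 1 and 2 than in QZ1-hi replicates 3 and 4, and highest in QZ1-lo replicate 1 among the QZ1-lo libraries. The genes were picked for likeness over the same 8 libraries, so these shared patterns follow from the choice. Of the Rnf149 exon length, 24.9% overlaps Gm15832 on the same strand.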

How the data were processed

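RNA of 4 QZ1-hi and 4 QZ1-lo libraries was sequenced after preparation with a stranded total RNA kit. The authors made raw counts per gene with Rsubread from aligned reads, and deposited them without normalization by Entrez Gene identifier. Per the labels, processing used mm10 and DESeq2. The aligner, the annotation and the strand setting of the counting are not given in the sources used here, and sort purity was not directly assessed. The series text calls the libraries biological replicates but does not say which mouse each came from, so p-values measure only the spread between these samples.

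Groups were taken from the condition label. Of 27179 identifiers, 25275 were given a symbol (RefSeq, GRCm38.p6) and 1904 were not. The analysis used edgeR 4.0.16 in R 4.3.3 (TMM, filterByExpr with a minimum count of 10 and a minimum total of 15, quasi-likelihood test between the populations, Benjamini-Hochberg adjustment over 15583 genes, threshold 0.05, common dispersion 0.113). The SE was obtained by dividing the log2 fold change by the root of F, and 95% intervals used the test's degrees of freedom. Mean CPM values were also compared by two-sided exact permutation over 70 assignments (smallest p 0.0286). The reads carry no molecular identifiers and are not independent, so floors of 3 counts cover counting error only. Positions, exon lengths, exon overlaps and shared stretches of 50 bases are from GENCODE M21 on GRCm38. Alternatives used DESeq2 1.42.0, limma 3.58.1, other scalings and filters, robust shrinkage and the omission of each library, and the procedure was tested on simulated data.

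All 10 genes were named. Beyond them, genes called without overlap were named from each list, at most 4, with the largest changes first, together with genes of known contact with ALK or EML4 and the 3 genes most like Eml4 and Alk. The genes examined and the lists were chosen with earlier results of these data known. Imaging, sensor, staining and single-cell experiments were not analysed here.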

Additional observations from a re-analysis of the deposited data

Results flagged for a closer look

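Among 41 groups of 4 values (levels and shares of the genes examined), 4 held a library standing apart from the other 3, by a gap divided by the group's range above Dixon's critical value. Chance gives about 1 such group in 20. The Eml2 level in QZ1-lo replicate 3 was 41.8 CPM, with the remaining QZ1-lo libraries at 30 to 31.8 CPM (gap over range 0.847). Within QZ1-lo that library also had the highest summed pan-epithelial (1700 CPM), ciliated (676 CPM), alveolar type 1 (965 CPM), alveolar type 2 (7300 CPM), endothelial (310 CPM), fibroblast (353 CPM) and pericyte (35.5 CPM) markers, whose part was not tested. Eml2 lost its call without it (-0.59, edgeR adjusted p = 0.0528). The Eml4 level in QZ1-hi replicate 4 was 27.7 CPM, against 17.2 to 18.3 CPM in the other QZ1-hi libraries (0.897). Without that library the log2 fold change of Eml4 was -0.32 (edgeR adjusted p = 0.175). The Eml4 share of the summed EML level in the same library was 27.7%, against 15.5 to 15.8% (0.975). The Eml2 share of the summed EML level in QZ1-hi replicate 2 was 42.5%, against 28 to 29.9% in the other QZ1-hi libraries (0.869).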

How the results depend on the processing

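Eml1 kept its direction and its call under all 16 alternatives, with log2 fold changes of 1.08 to 1.97. Eml3, Eml4, Eml6, Alk and Alkal1 were called under none of those run. Library size scaling gave 882 higher and 2509 lower genes over the whole table, 3 lower among the genes examined, 8 higher and 24 lower in the lists, and turned Eml6 (-0.18) and Alk (-0.43). That setting lacks the composition correction, and its median log2 fold change over all genes was -0.44, against 0.02 with TMM. Among the genes examined, DESeq2 (Eml2 and Eml5) and a minimum of 10 counts in every library (Eml2 and Ltk) each gave 2 lower. Leaving out 1 library at a time gave 1136 to 1506 higher and 938 to 1201 lower genes over the whole table, 0 to 2 lower among the genes examined, and 16 to 22 higher and 6 to 10 lower in the lists, against 21 and 10 with all libraries. The fewest lower list genes, 6, came without QZ1-lo replicate 2. The log2 fold change then ranged from -0.27 to 0.05 for Eml3 and from -0.20 to 0.45 for Alk. Lengths from the longest transcript moved 7 levels per kilobase beyond 1 SD, those of Eml1 and Eml2 in both populations, Eml4 in QZ1-lo, and Eml6 and Alk in QZ1-hi. Alkal1 could not be tested with at least 10 counts in every library. The causes of these changes were not tested. No paired analysis was possible because the labels carry no replicate or mouse number, and the numbers used here follow the order of deposit only. Depth limited Alk, Ltk, Alkal1 and Alkal2, with at most 361, 92, 53 and 3 counts in a library.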
